A study of Mus musculus with 10 samples.

Results

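The gene set was 7 subunits of the GABA-A receptor, chosen by gene symbol in the feature lists of the series: Gabra2, Gabra3, Gabra4, Gabra5, Gabrb1, Gabrb2 and Gabrd. They are 7 of the 30406 genes that were present in all 10 feature lists. Expression was measured by droplet single-cell RNA sequencing in tissue punched from the medial prefrontal cortex, from C57BL/6N mice that were male and over 2 months old. Mice were ranked in the tube test, in which 2 animals meet in a narrow tube and one pushes the other back, and brains were taken one day after the last test. There were 5 libraries of mice with rank 1 and 5 libraries of mice with rank 4, and each library pooled tissue from 2 to 3 mice. All groups shared strain, sex, age and tissue, and the labels name no drug, transgene or other genotype. Because animals were pooled, the spread between libraries is a spread between pools and not between mice.

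GABA-A receptors are chloride channels that open when they bind GABA, the main inhibitory transmitter of the cortex, and each is built from subunits arranged around a central pore. The alpha subunits shape where the receptor sits and how it responds to GABA and to benzodiazepines, the beta subunits are needed for assembly and GABA binding, and the delta subunit marks receptors outside synapses that respond to low ambient GABA and to neurosteroids. Alpha 4 is a common partner of delta in forebrain, alpha 5 is known from extrasynaptic receptors of pyramidal cells, and alpha 2 is enriched at the axon initial segment.

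In GRCm38, Gabra2 lies on chr5:70957597-71095849 on the minus strand, in a cluster of GABA-A subunit genes. Gabra4 follows on chr5:71569749-71658308, also on the minus strand, and Gabrb1 on chr5:71658113-72149037 on the plus strand, so that the 5′ ends of these 2 genes overlap by 196 bases in the gene annotation. Gabra3 lies on chrX:72432681-72656848 (minus), Gabra5 on chr7:57407672-57510059 (minus, overlapping the antisense gene Gm9962), Gabrb2 on chr11:42419757-42629028 (plus) and Gabrd on chr4:155384980-155398112 (minus). All are protein coding. Whether the counting used the strand is not given in the sources used here, so reads from the overlapping stretches of Gabra4 and Gabrb1, and of Gabra5 and Gm9962, could not be assigned with certainty. Promoter windows from RefSeq (GRCm38.p6; 250 bases before to 50 after a start) were matched for 6 of the 7 genes. Gabra4 and Gabrb1 are shown because their 5′ ends overlap and their levels were ordered differently over the cell types. Only bases before a start that lie in no annotated exon are printed. Gabrb1 has 2 RefSeq starts in the table, an upstream one that sits head to head with Gabra4 and a downstream one that does not. The Gabra4 stretch is chr5:71658364-71658558 on the minus strand, that of the upstream Gabrb1 start is chr5:71657671-71657723 and that of the downstream start chr5:71699825-71699931, both on the plus strand. Capitals mark matches to GGGCGG, a GC-box sequence searched on both strands, which read CCGCCC here because they lie on the opposite strand. The Gabra4 window held 2 matches and the Gabrb1 windows held 0, and 35.7% of 32851 promoter windows of the same length held at least 1. A match is a description of the letters only.
Gabra4: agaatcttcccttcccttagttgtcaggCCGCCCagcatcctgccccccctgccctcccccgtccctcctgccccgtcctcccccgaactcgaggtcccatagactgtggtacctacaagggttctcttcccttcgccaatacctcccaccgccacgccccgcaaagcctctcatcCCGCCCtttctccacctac
Gabrb1 upstream start: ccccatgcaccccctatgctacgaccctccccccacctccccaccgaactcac
Gabrb1 downstream start: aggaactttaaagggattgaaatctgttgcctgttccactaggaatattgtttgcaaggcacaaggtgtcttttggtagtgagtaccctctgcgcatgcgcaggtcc

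The libraries held 4442750 to 29278466 UMIs (unique molecules counted), and 46431 of 64937 barcodes were kept after filters on genes and mitochondrial counts and removal of the 3151 barcodes called as doublets. The median kept cell of a library had 1333 to 2667 UMIs. Cells were clustered with the 19 GABA-A receptor genes left out, and clusters were named from marker lists. This gave 16656 excitatory neurons, 2239 inhibitory neurons, 9112 astrocytes, 3249 oligodendrocyte precursors and several other non-neuronal types. Excitatory neurons were divided into intratelencephalic (IT), pyramidal tract (PT), near-projecting (NP) and corticothalamic (CT) types by layer, and inhibitory neurons into Lamp5, Pvalb, Sst and Vip types. Of the excitatory cells, 15.8% ± 8.21 in rank 1 and 18.4% ± 4.78 in rank 4 (SD, n = 5 libraries each) stayed without a subclass. Of the inhibitory cells, 16.3% ± 7.20 in rank 1 and 18.0% ± 10.2 in rank 4 stayed without a type. The Vip type joined a cluster of 386 cells with one of 124 cells. The leading genes of the smaller cluster included Cadps2, Sncg, Htr3a and Cck, and not Vip. Across libraries 571 barcode sequences occurred more than once, with at most 104 shared by a pair. L5 IT was named only under a looser threshold set after the scores had been seen. Levels below are UMIs per 1000000 UMIs of a cell type (CPM), summed over the cells of a library. They are compared between cell types for 1 gene and never between genes.

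The libraries stood apart in 2 sets before any comparison was made. Replicates 1 to 3 of both ranks carried a gene list written by software version 3.1.0 and replicates 4 and 5 one of version 4.0.0, as the file headers state, and Gabrb2 followed this division. In excitatory neurons Gabrb2 was 9.24 ± 2.94 CPM (SD, range 5.16 to 12.6, n = 6) in the first set and 70.7 ± 4.75 CPM (65.9 to 77.1, n = 4) in the second, a ratio of 7.65. The sets did not overlap. In inhibitory neurons the corresponding means were 11.3 and 99.5 CPM, a ratio of 8.82. Gabra3 and Gabrb1 differed less in excitatory neurons, by ratios of 1.45 and 1.41, and the ratios of the other 4 genes were 0.91 to 1.03. The version, the replicate number and anything else that changed between the sets cannot be told apart. Levels of Gabrb2 are therefore given for each set, with a percent of the excitatory level pooled over both, and comparisons of cell types were made within libraries, with the library as a block.

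Across cell types the genes fell into different orders. By mean level, Gabra2 and Gabrd were highest in L2/3 IT neurons, Gabra3 in L6 IT neurons, Gabra4, Gabra5 and Gabrb2 in Lamp5 interneurons, and Gabrb1 in L6 CT neurons. Most of these leads were small against the spread within libraries. The leading type was above the next in 5 of 8 libraries for Gabrb1 (L6 CT over astrocytes; mean log2 difference 0.17, SD 0.42), 5 of 9 for Gabra3 (over Sst cells) and for Gabrd (over Lamp5 cells), 5 of 7 for Gabra5 (over L6 CT neurons), 6 of 8 for Gabrb2 (over Pvalb cells) and 7 of 10 for Gabra2 (over L5 PT neurons). The means of types with fewer than 10 libraries also draw on the 2 sets in other proportions. Gabra4 in Lamp5 cells (103 CPM) led L2/3 IT neurons (99.9 CPM) only through 1 library at 229 CPM, and within libraries Lamp5 cells were higher in 4 of 9 (mean log2 difference -0.12, SD 0.62). With each library left out in turn, these leading means ran over 465 to 487 CPM for Gabra2, 109.9 to 117 for Gabrd, 106 to 114 for Gabra3, 87.0 to 109 for Gabra4, 106 to 117 for Gabra5 and 394 to 424 for Gabrb1. For Gabrb2 the Lamp5 mean was the highest in each set of libraries, at 23.6 and 154 CPM. Neighbours in the 7 orders were then compared within libraries. An exact sign-flip permutation test (two-sided) of 126 neighbouring pairs gave 14 with p below 0.05 and 0 after Benjamini-Hochberg adjustment, where the smallest adjusted p was 0.0984. The smallest p that 10 libraries can give is 0.00195, so that over 126 tests a single pair could not pass however far apart it was, and the adjusted values say nothing on which neighbours were alike. This smallest p was reached by Gabra2 between L5 PT (428 CPM) and L5 IT neurons (232 CPM; mean log2 difference 0.87, SD 0.20) and by Gabrb1 between oligodendrocyte precursors (85.4 CPM) and microglia (53.0 CPM; 1.33, SD 1.16), each in 10 of 10 libraries. The order of Gabrb2 pooled both sets of libraries.

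**Figure D1:**
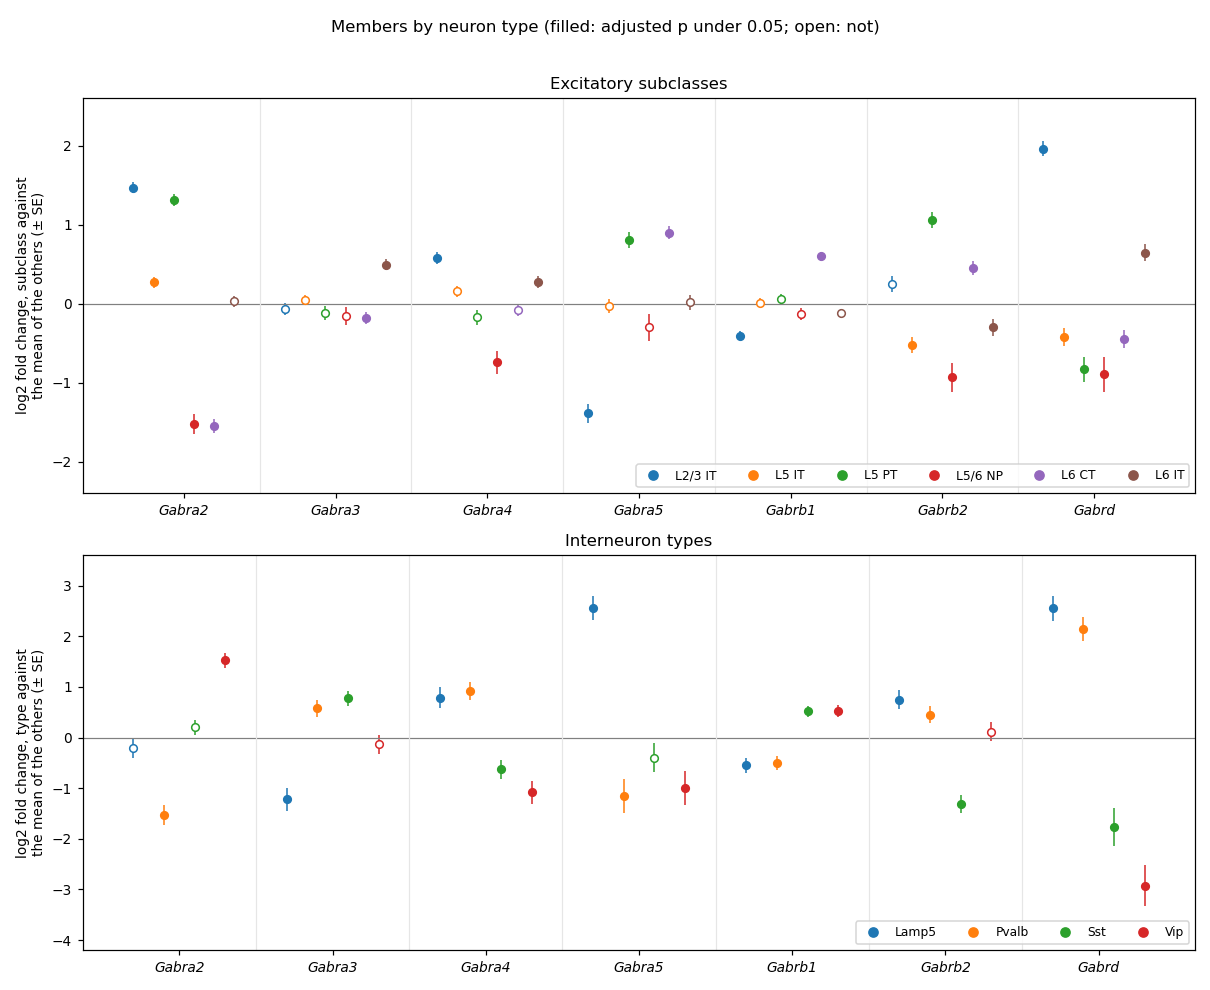
Log2 fold change (± SE) of each gene in each excitatory subclass (top) and interneuron type (bottom) against the mean of the others, with filled points for an adjusted p under 0.05. Gabra2 and Gabrd sit highest in L2/3 IT neurons (1.47 and 1.96), and among interneurons Gabrd is high in Lamp5 (2.55) and Pvalb cells (2.14); its points for Sst and Vip cells rest on 25 and 8 UMIs, and those of Gabra5 for Pvalb and Vip cells on 22 and 21.

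Each excitatory subclass was then compared with the mean of the other subclasses, to ask which subunits distinguish the layers. Of 42 tests, 26 passed the adjusted threshold of 0.05 (edgeR's quasi-likelihood test, Benjamini-Hochberg adjustment over 10079 genes). By subclass, 5 of 7 genes passed in L2/3 IT neurons (background 41.7% of all genes), 3 in L5 IT (30%), 4 in L5 PT (37.3%), 4 in L5/6 NP (31.5%), 6 in L6 CT (32.3%) and 4 in L6 IT (33.7%). The share of the 7 genes was above the background in all 6 subclasses, which was not tested. The 7 genes were chosen with earlier results of these data known, so this share is a description only. The median log2 fold change of the 7 genes was 0.25 in L2/3 IT neurons against 0.02 over all genes, and -0.75 against -0.01 in L5/6 NP neurons, where 4 genes were lower and 0 higher. The same test among interneurons passed 6 of 7 genes in Lamp5 (30.1%), 7 in Pvalb (35.7%), 5 in Sst (29%) and 5 in Vip cells (26.1%), of 3772 genes tested. All 7 genes passed the filter on low counts in these fits and in those of the cell classes. A gene that is near 0 in some types could pass through the types in which it was high, as Gabrd did in Lamp5 and Pvalb cells and Gabra5 in Lamp5 cells, and such a gene had to differ. The 23 interneuron calls include 5 lower calls at or near the microglial level: Gabrd in Sst and Vip cells, Gabra5 in Pvalb and Vip cells and Gabra2 in Pvalb cells. Microglia are a high floor for interneurons. The 6 markers of excitatory neurons described below were at 18.9% to 24.7% of their excitatory level in microglia and at 9.4% to 12.4% in inhibitory neurons.

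Gabra2, the alpha 2 subunit, divided the excitatory layers. It was 475 ± 62.1 CPM in L2/3 IT neurons (368 to 565, median 482) and 428 ± 75.6 CPM in L5 PT neurons (n = 10 each), and 74.2 ± 27.1 CPM in L6 CT (34.1 to 108, median 81.6) and 80.0 ± 27.6 CPM in L5/6 NP neurons (n = 8 each). The lowest L2/3 IT library was above the highest of both L6 CT and L5/6 NP. L5 IT and L6 IT neurons lay between, at 232 ± 29.1 CPM (177 to 266) and a median of 198 CPM (141 to 258). Against the mean of the other subclasses Gabra2 was higher in L2/3 IT (log2 fold change 1.47 ± 0.06, SE; 10 of 10 libraries) and L5 PT neurons (1.31 ± 0.07; 10 of 10). It was lower in L6 CT (-1.55 ± 0.09; 8 of 8) and L5/6 NP neurons (-1.53 ± 0.13; 8 of 8). Among interneurons it was highest in Vip cells, at 202 ± 68.5 CPM (1.53 ± 0.15; 9 of 10), a value set against a mean that includes Pvalb cells. Pvalb cells were the lowest, at 44.7 ± 31.8 CPM from 72 UMIs over 9 libraries (called lower; 8 of 9). This was no higher than in microglia (49.1 ± 37.6 CPM), so that the fitted value is not given as a fold. Excitatory markers were at a higher share of their excitatory level in microglia (18.9% to 24.7%) than in inhibitory neurons (9.4% to 12.4%). Whether the Pvalb level was background was therefore not settled. Vip cells thus held Gabra2 near the level of L6 IT neurons, while the Sst and Lamp5 values of 0.20 ± 0.15 and -0.21 ± 0.20 did not pass.

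Gabra3, the alpha 3 subunit, had close means over the excitatory layers. Its subclass means ran from 78.5 ± 23.0 CPM in L6 CT (n = 8) to 111 ± 24.7 CPM in L6 IT neurons (n = 10), and these ranges overlapped. It was higher in L6 IT neurons (log2 fold change 0.49 ± 0.07; 7 of 10 libraries). A lower value in L6 CT (-0.18 ± 0.07, adjusted p = 0.0422 by edgeR's quasi-likelihood test) was lost when any 1 of 8 libraries was left out (rank 1 replicate 2, 3, 4 or 5, or rank 4 replicate 1, 2, 3 or 5), and ran from -0.21 to -0.13 over all such fits. Among interneurons it was higher in Sst cells, which are Martinotti-type cells in large part (105 ± 28.7 CPM; 0.78 ± 0.15; 9 of 9), and lower in Lamp5 cells (44.7 ± 27.2 CPM; -1.22 ± 0.23; lower in 7 of 9). The higher value in Pvalb cells (0.58 ± 0.17) was not called without rank 4 replicate 5, at 0.34.

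Gabra4, the alpha 4 subunit, was high in Lamp5 interneurons (103 ± 56.7 CPM, 52.1 to 229, n = 9), L2/3 IT neurons (99.9 ± 15.5 CPM, 85.9 to 131, n = 10) and Pvalb cells (90.6 ± 41.1 CPM, n = 9). It was higher in L2/3 IT neurons than in the mean of the other subclasses by a log2 fold change of 0.57 ± 0.08 (10 of 10 libraries). In L5/6 NP neurons, which project little beyond nearby cortex, it was lower (46.4 ± 15.1 CPM, n = 8; -0.75 ± 0.15; 8 of 8). Among interneurons Lamp5 (0.79 ± 0.20; 8 of 9) and Pvalb cells (0.92 ± 0.18; 6 of 9) were higher and Sst (-0.63 ± 0.19; lower in 6 of 9) and Vip cells (-1.08 ± 0.23; lower in 8 of 10) lower. The L6 IT value (0.27 ± 0.08) was not called without rank 1 replicate 5, at 0.23, nor the Sst value without rank 4 replicate 5, at -0.47.

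Gabra5, the alpha 5 subunit, followed another order: Lamp5 interneurons at 113 ± 33.5 CPM (80.1 to 170, n = 9), L6 CT neurons at 97.6 ± 16.7 CPM (77.6 to 120, n = 8) and L5 PT neurons at 95.6 ± 29.3 CPM (46.3 to 147, n = 10). L2/3 IT neurons were at 24.2 ± 9.40 CPM (3.66 to 39.6, n = 10), below every L6 CT library. The log2 fold changes were 0.90 ± 0.08 in L6 CT (8 of 8 libraries), 0.81 ± 0.10 in L5 PT (9 of 10) and -1.39 ± 0.12 in L2/3 IT neurons (lower in 10 of 10). The gene was therefore low in the same L2/3 IT neurons in which Gabra2 was high, while L5 PT neurons were high for both. Lamp5 cells, which include neurogliaform cells of the upper layers, stood above the other interneurons (2.56 ± 0.24; 9 of 9), a value set against a mean that includes Pvalb and Vip cells. These 2 types held 12.1 ± 9.14 and 11.2 ± 11.6 CPM, from 22 and 21 UMIs over all their libraries. This is near the level of microglia (13.5 ± 16.7 CPM). Excitatory markers were at a higher share in microglia (18.9% to 24.7%) than in inhibitory neurons (9.4% to 12.4%), so whether these levels were background was not settled. Both types were called lower, but Gabra5 passed the filter through Lamp5 cells and the size of their fitted values is not given as a fold. The Vip call was lost without rank 1 replicate 1 or rank 4 replicate 4.

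Gabrb1, the beta 1 subunit, was highest in L6 CT neurons, which send axons to the thalamus (408 ± 73.6 CPM, 294 to 506, median 414, n = 8), and lowest among the subclasses in L2/3 IT neurons (218 ± 32.7 CPM, 172 to 266, n = 10). No L2/3 IT library reached the lowest L6 CT library. The log2 fold changes were 0.60 ± 0.06 (8 of 8 libraries) and -0.41 ± 0.06 (lower in 10 of 10), and the other 4 subclasses did not pass, at -0.13 to 0.06. Interneuron levels were 187 ± 43.0 CPM in Sst and 185 ± 41.6 CPM in Vip cells, against 114 ± 28.9 CPM in Lamp5 and 101 ± 34.1 CPM in Pvalb cells. Sst (0.52 ± 0.11; 9 of 9) and Vip cells (0.53 ± 0.12; 9 of 10) were higher, and Lamp5 (-0.55 ± 0.15; lower in 7 of 9) and Pvalb cells (-0.50 ± 0.13; lower in 9 of 9) lower. The Lamp5 value turned in sign among replicates 1 to 3 alone, to 0.01 ± 0.22, against -0.82 ± 0.18 in replicates 4 and 5.

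Gabrb2, the beta 2 subunit, is given for the 2 sets of libraries. In L5 PT neurons it was 19.3 ± 11.3 CPM (n = 6) in replicates 1 to 3 and 125 ± 11.7 CPM (n = 4) in replicates 4 and 5. The lowest subclass of the second set was L5/6 NP, at 40.5 ± 12.9 CPM (n = 4), where the first set had 6.23 ± 7.90 CPM (n = 4). Across both sets it was higher in L5 PT (log2 fold change 1.06 ± 0.10; 9 of 10 libraries) and L6 CT neurons (0.45 ± 0.09; 8 of 8), and lower in L5/6 NP (-0.93 ± 0.18; lower in 6 of 8), L5 IT (-0.52 ± 0.10; lower in 8 of 10) and L6 IT neurons (-0.30 ± 0.11; lower in 9 of 10). The L6 IT call was lost without rank 4 replicate 5, at -0.31. Sst interneurons were at 11.4 ± 6.95 and 50.5 ± 13.5 CPM in the 2 sets, and lower than the other types (-1.31 ± 0.18; lower in 7 of 9). Lamp5 cells were at 23.6 ± 8.48 and 154 ± 21.8 CPM, and higher (0.75 ± 0.19; 8 of 9). The higher value in Pvalb cells (0.45 ± 0.16) was not called without rank 1 replicate 5 (0.43), rank 4 replicate 4 (0.38) or rank 4 replicate 5 (0.28). The Pvalb call was also lost with DESeq2 (0.44), without the filter on low counts (0.44), with a stricter cell filter (0.16) and without the library block (0.55). The gene did not pass the filter on low counts in subclasses or interneuron types of replicates 1 to 3 alone, so those comparisons rest on the second set and on the joint fit.

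Gabrd, the delta subunit, was high in Lamp5 and Pvalb interneurons and had few UMIs in Sst and Vip cells. It was 113 ± 20.6 CPM in L2/3 IT neurons (76.9 to 139, median 119, n = 10), 100.5 ± 23.8 CPM in Lamp5 cells (66.9 to 140, n = 9) and 93.5 ± 65.9 CPM in Pvalb cells (32.4 to 249, n = 9). Sst and Vip cells were at 8.26 ± 6.06 (n = 9) and 3.50 ± 5.76 CPM (n = 10), below every Lamp5 and Pvalb library and no higher than in microglia (8.38 ± 7.19 CPM, n = 10). These levels rest on 25 UMIs over the Sst and 8 UMIs over the Vip libraries, and the Vip level is read as background. Whether the Sst level was background was not settled. Excitatory markers were at a higher share in microglia (18.9% to 24.7%) than in inhibitory neurons (9.4% to 12.4%). The fit gave 2.55 ± 0.25 in Lamp5 (9 of 9 libraries) and 2.14 ± 0.24 in Pvalb cells (9 of 9) on the log2 scale. It called Sst (lower in 9 of 9) and Vip cells (lower in 10 of 10) lower, but the size of these fitted values depends on the few UMIs there and is not given as a fold, and the Lamp5 and Pvalb values include those types in the mean they are set against. Among excitatory neurons it was higher in L2/3 IT (1.96 ± 0.09; 10 of 10) and L6 IT (0.64 ± 0.11; 9 of 10). All 4 other subclasses were lower, L5 PT by a log2 fold change of -0.83 ± 0.16 (20.9 ± 5.48 CPM; lower in 10 of 10). The L6 IT value was 0.28 ± 0.18 when only replicates 1 to 3 were fitted and 0.80 ± 0.12 for replicates 4 and 5. Gabrd and its frequent partner Gabra4 were both higher in L2/3 IT neurons, and both were called higher in Lamp5 and Pvalb cells.

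**Figure D2:**
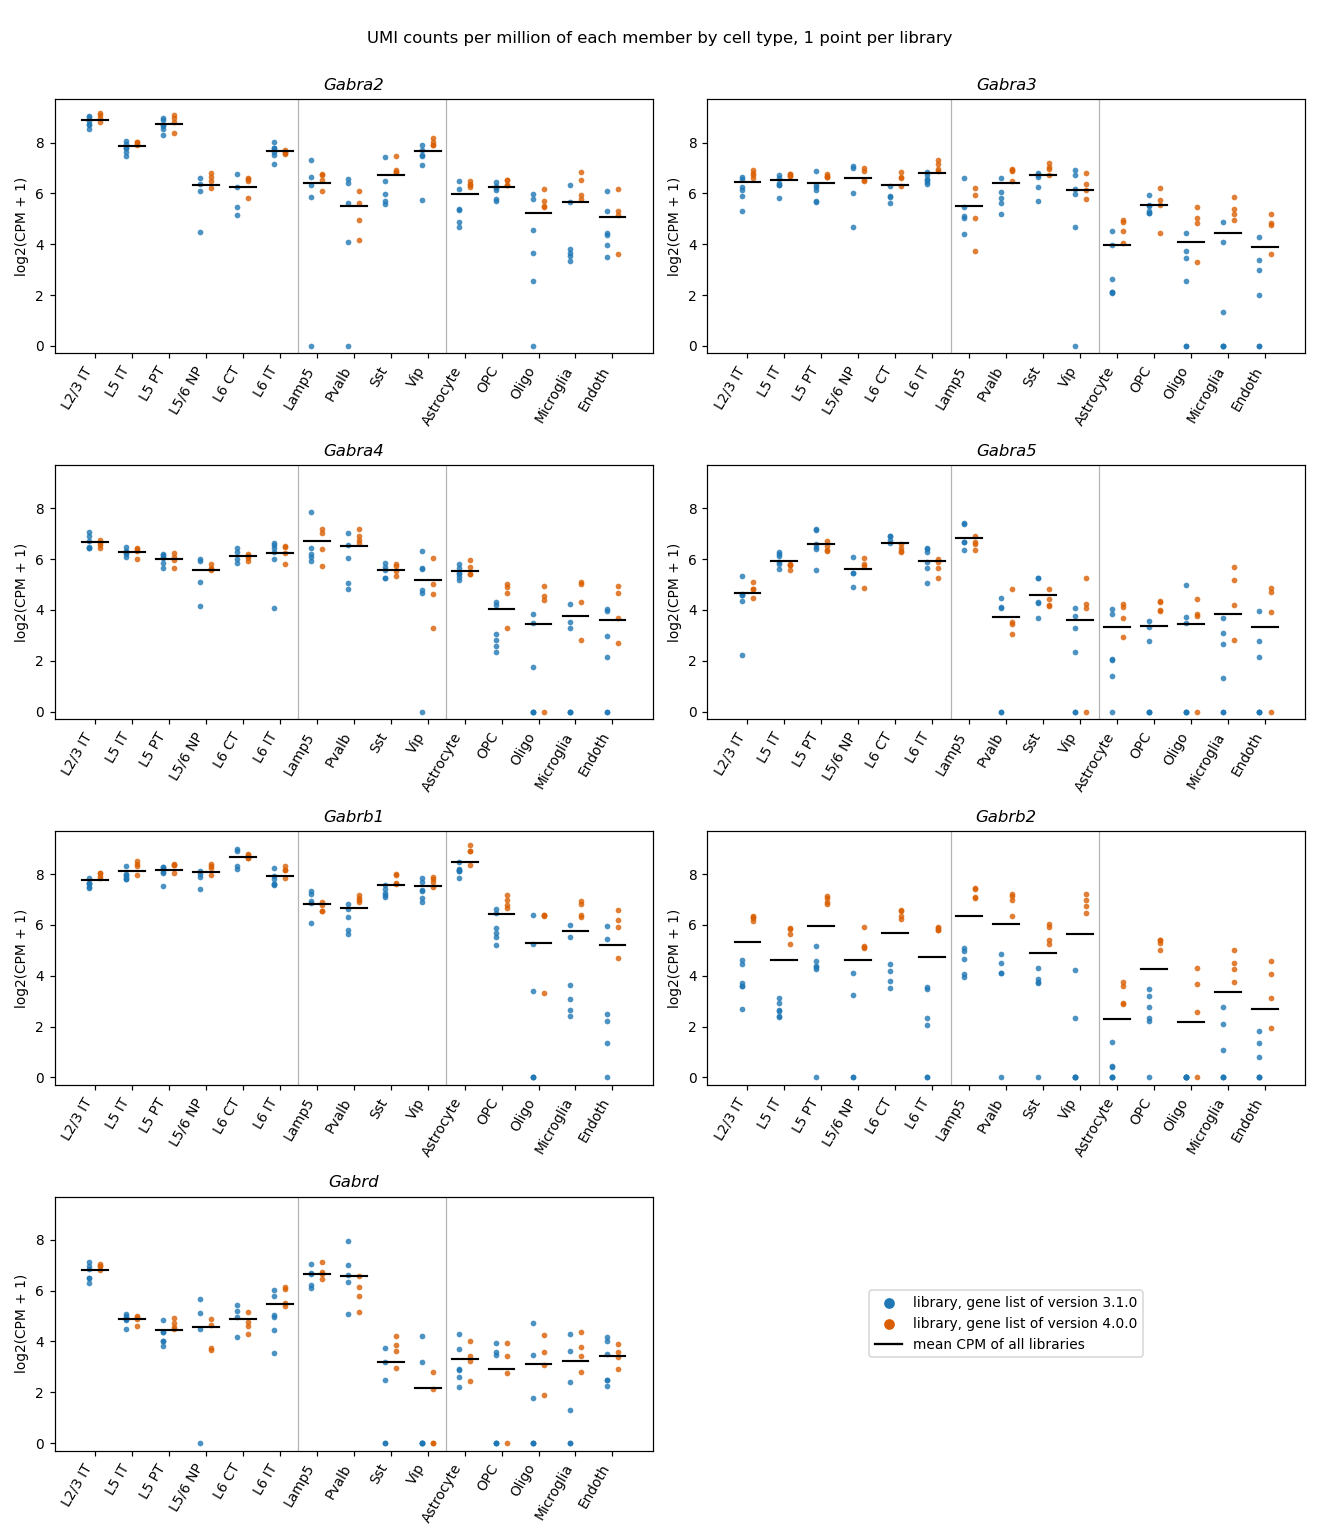
Level of each gene as log2(CPM + 1) by cell type, 1 point per library, blue for gene lists of version 3.1.0 and orange for 4.0.0, with a black line at the mean CPM of all libraries (OPC, oligodendrocyte precursors). The 2 colours separate for Gabrb2 in every excitatory subclass, while for Gabra2 and Gabrd they overlap in L2/3 IT neurons.

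The subclass calls were also made within each set of libraries. In replicates 4 and 5, 24 of the 26 calls were kept and all 26 had the same direction. In replicates 1 to 3, 21 of the calls could be tested, all had the same direction and 14 were kept. Among interneurons 21 of 23 were kept in replicates 4 and 5. Only 6 could be tested in replicates 1 to 3, of which 5 had the same direction and 3 were kept, and the exception in direction was Gabrb1 in Lamp5 cells. Most interneuron calls were thus testable only with replicates 4 and 5 in the fit.

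Inhibitory neurons as a class were compared with excitatory neurons. Of the 7 genes, 3 were lower and 1 higher in inhibitory neurons, against 48.4% of 10899 genes called in either direction, so the share called was close to the background. Gabra2 was 252 ± 33.4 CPM in excitatory (206 to 310) and 120.0 ± 38.2 CPM in inhibitory neurons (58.1 to 190), lower in 10 of 10 libraries (log2 fold change -0.92 ± 0.11). Gabrb1 was 269 ± 62.8 and 153 ± 34.6 CPM (-0.79 ± 0.06; lower in 10 of 10), and Gabra5 was 60.4 ± 7.20 and 35.5 ± 11.02 CPM (-0.86 ± 0.11; lower in 9 of 10). Gabrb2 was higher in inhibitory neurons (0.49 ± 0.10; 8 of 10), with 0.48 ± 0.32 within replicates 1 to 3, which was not called, and 0.47 ± 0.09 within replicates 4 and 5. Gabra3 (-0.09 ± 0.08), Gabra4 (-0.17 ± 0.10) and Gabrd (-0.06 ± 0.10) did not pass. The class value of Gabrd covered interneuron types on both sides of the excitatory mean of 46.4 ± 7.24 CPM.

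Outside neurons, Gabrb1 in astrocytes stood apart. It was 355 ± 110 CPM there (226 to 562, median 308, n = 10), against 269 ± 62.8 CPM in excitatory neurons of the same libraries. The log2 fold change was 0.55 ± 0.10 (9 of 10 libraries; adjusted p = 0.000143 by edgeR's quasi-likelihood test). All 7 genes were called in astrocytes, where 77.6% of 11510 genes were called, and the other 6 were lower. In replicates 1 to 3 astrocytes held 286 CPM of Gabrb1 (226 to 355, n = 6) and in replicates 4 and 5 they held 459 CPM (324 to 562, n = 4), and the gene was called higher within both sets. Gabra4 was the closest of the others, at 45.8 ± 8.28 CPM (-0.61 ± 0.09; lower in 10 of 10).

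UMIs of excitatory neuron genes were present at a low level in other cells, which was measured with 6 markers of excitatory neurons, among them Slc17a7 and Neurod2. These markers were at 12.4% to 16.6% of their excitatory level in astrocytes and 13.6% to 19.2% in endothelial cells. Gabrb2 in astrocytes was 0.381 ± 0.617 CPM in replicates 1 to 3 (n = 6) and 9.21 ± 3.15 CPM in replicates 4 and 5 (n = 4). In astrocytes Gabrb1 was at 132% of its excitatory level, Gabra4 at 58.5% and Gabra2 at 24.5%, and the other 4 genes at 11.6% to 19.5%. Gabra3, Gabra5, Gabrb2 and Gabrd in astrocytes were therefore near the level of the markers and are not read as expression. Gabrb1 UMIs were seen in 42.6% ± 8.94 of astrocytes and 53.7% ± 10.1 of excitatory neurons, against 5.60% ± 5.08 of endothelial cells and 6.23% ± 4.75 of microglia (SD over 10 libraries; median UMIs 1503, 2429, 1218 and 1275). After thinning each cell to 1000 UMIs, and leaving out shallower cells, the shares were 28.5%, 23.7%, 3.65% and 4.38%. Shares in endothelial cells and microglia are read as background.

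In oligodendrocyte precursors all 7 genes were lower than in excitatory neurons, where 72.1% of 11035 genes were called and 39.5% were lower. Gabrb2 (54.0% of its excitatory level), Gabra3 (52.6%), Gabrb1 (31.8%) and Gabra2 (29.9%) were above the 12.6% to 18.6% of the excitatory markers. Gabrb2 was 5.30 ± 3.58 CPM in replicates 1 to 3 (n = 6) and 37.7 ± 4.75 CPM in replicates 4 and 5 (n = 4). Gabra3 was 45.5 ± 14.4 CPM (20.5 to 73.1) and Gabra2 75.4 ± 14.1 CPM (50.4 to 91.6; n = 10 each), with log2 fold changes of -1.05 ± 0.14 and -1.81 ± 0.10. Gabra4 (19.5%), Gabra5 (15.6%) and Gabrd (14.1%) were near the marker range. In microglia the 7 genes were at 16.2% to 27.7% of their excitatory level, where the markers were at 18.9% to 24.7%, and in endothelial cells at 12.9% to 20.8%.

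**Figure D3:**
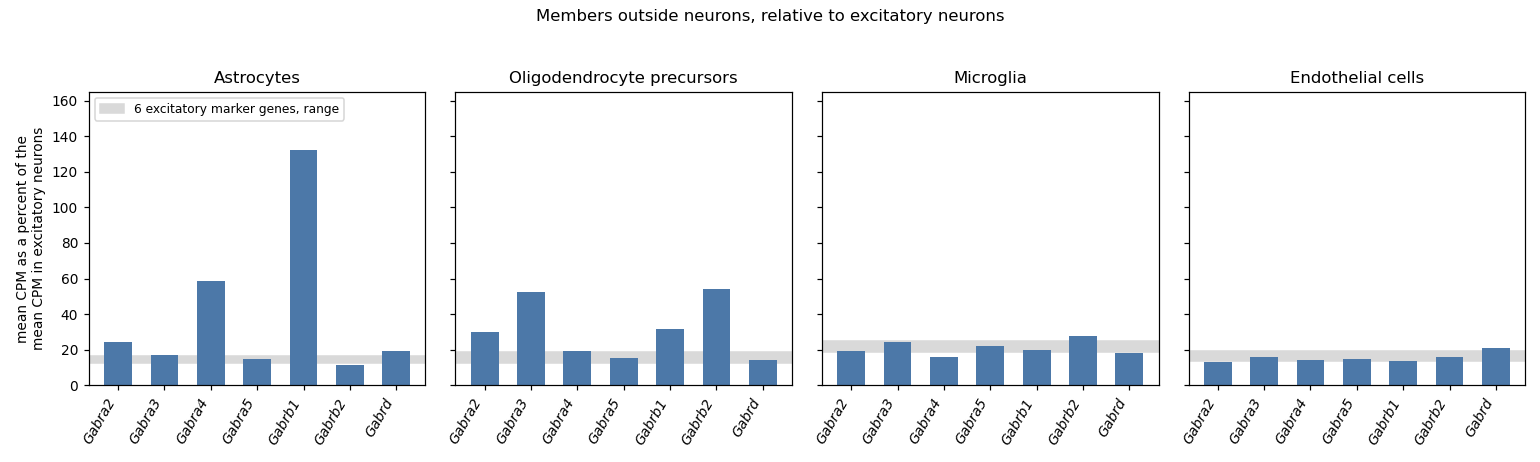
Mean CPM of each gene in 4 non-neuronal types as a percent of its mean in excitatory neurons (bars), with the range of 6 excitatory marker genes in grey and Gabrb2 pooled over both sets of libraries. Gabrb1 in astrocytes (132%) is above the level of excitatory neurons, and in endothelial cells the 7 bars lie at 12.9% to 20.8%.

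The likeness of each gene to 11788 other genes was described by Pearson's r of log2 levels over 19 cell types. The cell types share libraries and differ in depth, so these values carry no test. Gabra4 was most like Gabbr2 (r = 0.95), a subunit of the GABA-B receptor. Gabrb2 had Mast1 (0.94) and Slitrk4 (0.93) among its nearest genes. Gabra5 came closest to Rab26 (0.91), with the NMDA receptor subunit Grin2a at 0.89. For Gabrd the nearest genes were Atrnl1 (0.86), Lzts3 and Plch2 (0.80 each). Those of Gabrb1 were Trim9 (0.94), Gpm6a (0.93) and Tagln3 (0.92), those of Gabra2 were Chst1, Wscd2 and Adra2c (0.88 each), and those of Gabra3 were Nsg1, Cadm3 and Snap91 (0.97 each). Among the 7 genes r ran from 0.33 for Gabrb1 with Gabrd to 0.81 for Gabrb2 with Gabra3 and with Gabra4. All r values of Gabrb2 used means pooled over both sets of libraries, which some cell types held in other proportions. The neighbours Gabra4 and Gabrb1 had r = 0.79.

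Other genes of GABA signalling, a list of 37 chosen with earlier results of these data known, gave the setting of these values. In inhibitory against excitatory neurons 20 of 35 tested were higher and 6 lower, where 25.6% of all genes were higher and 22.8% lower (median log2 fold change 0.23, against 0.02 over all genes), among them all 7 tested genes of GABA synthesis, release, uptake and breakdown, some of which also marked the cells. In astrocytes 11 of 34 were higher and 19 lower, where 37.4% of all genes were higher and 40.2% lower (median -0.82, against -0.04). The 11 include Gad1 and Gad2, the enzymes of GABA synthesis, at 18.6 and 16.3 CPM, close to endothelial cells (23.2 and 19.3 CPM) and microglia (20.6 and 23.1 CPM), and these are read as background. The gamma 1 subunit Gabrg1 was higher in astrocytes (log2 fold change 4.71 ± 0.16), as Gabrb1 was. The GABA transporter Slc6a11 was higher by 4.26 ± 0.19. The gamma 3 subunit Gabrg3 was higher in L5/6 NP neurons (1.05 ± 0.11), where 0 of the 7 genes were higher, and lower in L2/3 IT neurons (-0.90 ± 0.10).

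Rank 1 was compared with rank 4 within each cell type, to ask whether dominant and subordinate mice differed in these subunits. Of 75 tests of the 7 genes over 15 cell types, 0 passed the adjusted threshold, and 2 had an unadjusted p below 0.05. The background was 0% in every cell type in this fit, which did not pair the libraries. Of 119936 tests over 17 cell types 0 were called, and 3754 (3.13%) had an unadjusted p below 0.05. With the replicate number as a block instead, 0.748% of genes were called in astrocytes, 0.533% in excitatory and 0.717% in L6 CT neurons. All 7 genes were tested in excitatory neurons, inhibitory neurons, L2/3 IT and L6 CT neurons, and fewer passed the filter on low counts in other types. Log2 fold changes ran from -0.79 to 0.44, and the smallest adjusted p was 0.989 (edgeR's quasi-likelihood test with the gene-list version as a covariate).

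The 2 genes with an unadjusted p below 0.05 were Gabra2 in L5 PT neurons and Gabra5 in L6 IT neurons. In L5 PT neurons Gabra2 was 397, 471, 498, 539.9 and 497 CPM in rank 1 replicates 1 to 5 and 415, 313, 372, 448 and 331 CPM in rank 4 replicates 1 to 5. The groups overlapped, and rank 1 was higher in 4 of 5 pairs of the same number (log2 fold change 0.36 ± 0.16, unadjusted p = 0.041 in the model fitted across all genes by edgeR). In L6 IT neurons Gabra5 was 57.5, 83.7, 86.2, 63.0 and 57.6 CPM in rank 1 and 49.7, 32.0, 77.4, 37.6 and 49.3 CPM in rank 4. One rank 4 library lay within the range of rank 1, and rank 1 was higher in 5 of 5 pairs (0.44 ± 0.19, unadjusted p = 0.0361 in the same kind of model). In the 2 sets of libraries, fitted apart, the values were 0.30 ± 0.26 and 0.43 ± 0.18 for Gabra2, and 0.45 ± 0.33 and 0.44 ± 0.20 for Gabra5.

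In the excitatory class Gabra2 was 235.5, 310.2, 295.8, 275.2 and 225.9 CPM in rank 1 and 239.9, 266.0, 225.6, 243.3 and 205.9 CPM in rank 4, with overlapping groups. Gabrb2 was 12.6, 10.2, 11.8, 65.9 and 77.1 CPM in rank 1 and 5.16, 6.48, 9.18, 71.1 and 68.8 CPM in rank 4. Each rank thus held 3 low and 2 high libraries, and the rank difference of Gabrb2 was 0.76 ± 0.30 in the low libraries and 0.05 ± 0.14 in the high ones. Neither was called. With the replicate number as a block, 1 of 29 class tests passed: Gabra2 in endothelial cells, at -0.89 ± 0.22 (adjusted p = 0.0411 by edgeR's quasi-likelihood test, 0.684% of genes called), against -0.79 ± 0.42 without the block. Its levels were 38.9, 20.8, 10.3, 11.2 and 34.9 CPM in rank 1 and 66.8, 14.8, 19.8, 38.9 and 70.3 CPM in rank 4, lower in rank 1 in 4 of 5 pairs. Gabra2 in endothelial cells was at 12.9% of its excitatory level, below the 13.6% to 19.2% of the excitatory markers there, and the part of neuronal RNA in this difference was not tested. Over all settings tried its adjusted p ran from 0.0411 to 1.

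**Figure D4:**
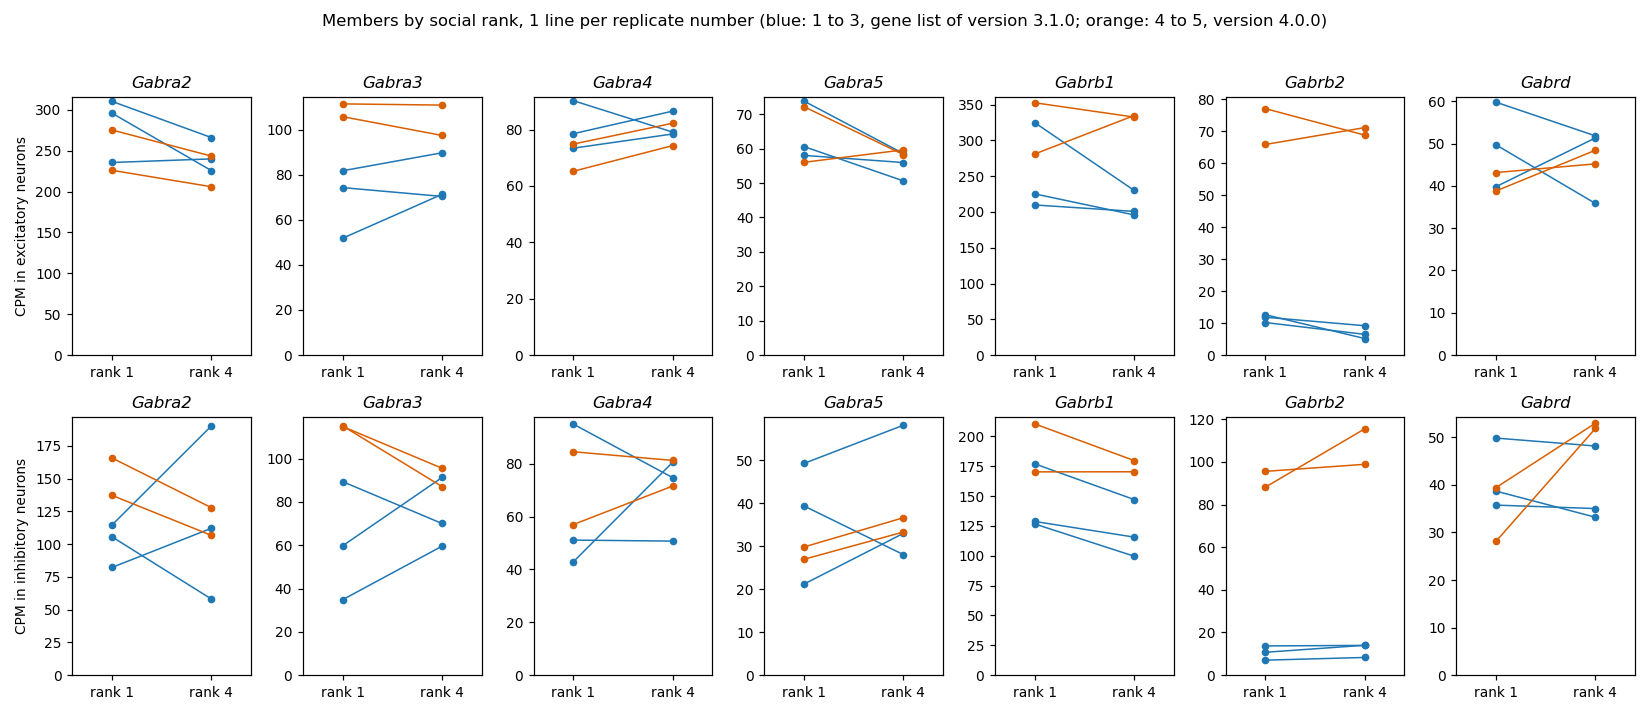
CPM of each gene in excitatory (top) and inhibitory neurons (bottom) by rank, 1 line per replicate number, blue for replicates 1 to 3 and orange for 4 and 5. Over both sets of libraries together rank 1 and rank 4 overlap in every panel, and the Gabrb2 lines fall into a low and a high set. In excitatory neurons the ranks do not overlap for Gabrb2 within replicates 1 to 3, and overlap within replicates 4 and 5.

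**Figure D5:**
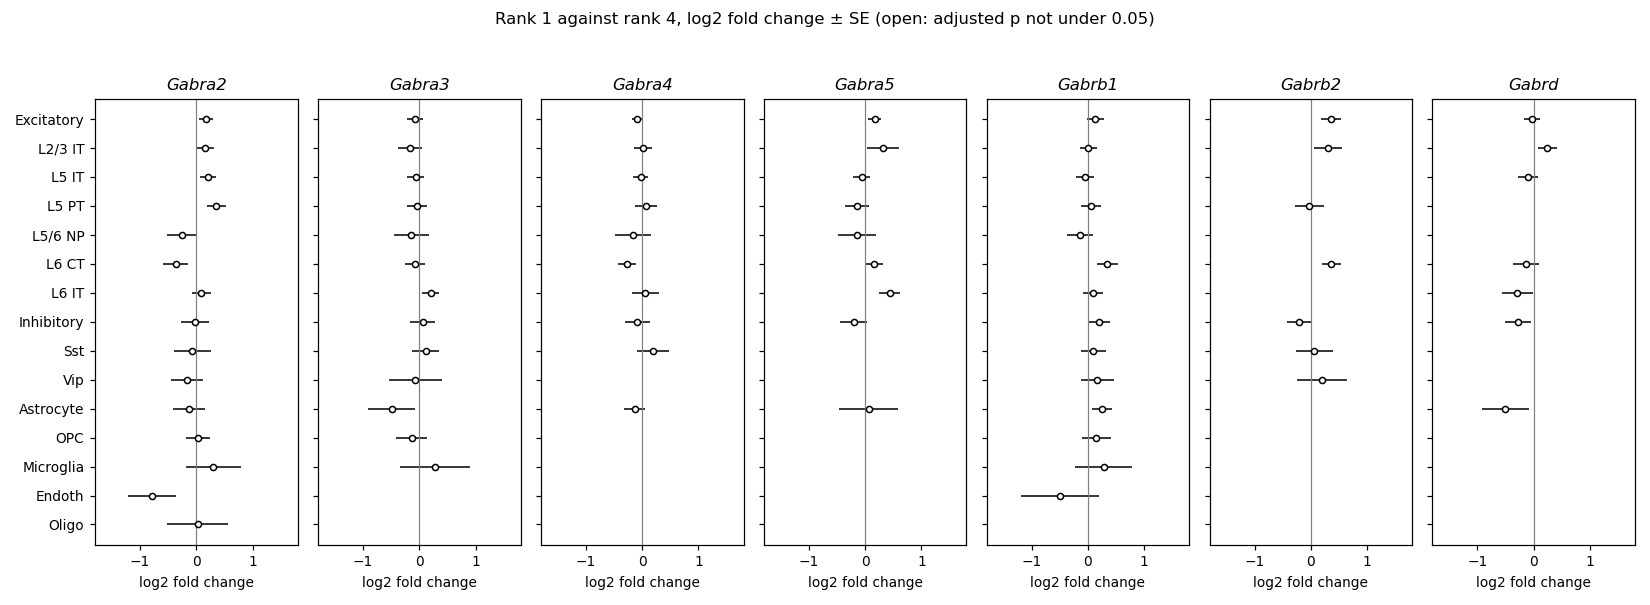
Log2 fold change (± SE) of rank 1 against rank 4 for each gene in each cell type in which it passed the filter on low counts (75 tests; open points, adjusted p not under 0.05). All points are open and lie between -0.79 and 0.44.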

How the data were processed

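UMI counts per gene and cell barcode were deposited for 10 libraries, and per the submitters' processing notes they were made with Cell Ranger 4.0.0 on the mm10 build. Per the file headers, replicates 1 to 3 of both ranks carry software version 3.1.0 (31053 genes) and replicates 4 and 5 version 4.0.0 (32285 genes). The 30406 shared genes were used. Cells with at least 500 genes and at most 15% mitochondrial counts were kept, doublets were called with Scrublet in scanpy 1.11.5 (with the median threshold of the other libraries where a library of over 5000 barcodes had under 0.5% called) and removed, and cells were clustered (Leiden) without the 19 GABA-A receptor genes and named from marker lists. A type needed at least 20 cells in a library. Levels and contrasts of interneuron types used at least 10, and rank tests at least 20 in at least 3 libraries of each rank. Counts were summed per library and cell type and tested with edgeR 4.0.16 (R 4.3.3; TMM, filterByExpr, quasi-likelihood test, Benjamini-Hochberg over all genes of a fit, threshold 0.05). Contrasts of cell types used the library as a block, and rank contrasts the gene-list version as a covariate. SE is the absolute log2 fold change divided by the square root of F. The script was tested on simulated data. Levels (CPM) are UMIs of a gene per 1000000 UMIs of the cell type in that library, a part of the library total. Shares of cells carry counting error and the SD over libraries.

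Named genes were the 7 subunits, the 3 genes most like each (Pearson's r over 19 cell types on log2(mean CPM + 5), among genes with at least 20 CPM in 1 type) and genes of a GABA signalling list, of which some are not reported here by name. The members and lists were chosen with earlier results of these data known. Replicate numbers come from the sample titles, which do not say what they share. Same-numbered libraries of the 2 ranks deviated together in excitatory neurons (r = 0.764, 0.891, 0.867, 0.884 and 0.929 over 7631 genes). These values include the split between gene-list versions. Within versions they were 0.841, 0.658, 0.510, 0.195 and 0.195. The last 2 are a single value, because 2 libraries of a rank mirror each other around their mean. Whether the numbers pair the libraries was therefore not settled. The main rank fit did not pair them. Pairs were used only to count directions and in the replicate block, an alternative fit. Alternatives were median-ratio size factors, DESeq2 1.42.0, no filter on low counts, a stricter cell filter (1000 genes, 10% mitochondrial), no library block, the replicate block, more cells per library and leaving out each library. Added after seeing the data were L6 IT neurons without a cluster led by immediate early genes, the subclass fit without L5 IT neurons and a minimum of 20 cells for interneuron types.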

Additional observations from a re-analysis of the deposited data

Results flagged for a closer look

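In inhibitory neurons, Gabra5 in rank 4 replicate 2 was 58.1 CPM, from 7 UMIs, and the next highest rank 4 library was at 36.6 CPM. This gap was 0.715 of the range of the 5 rank 4 libraries and exceeded the critical value of Dixon's test. It was the only 1 of 28 groups of libraries with such a gap, and chance gives about 1 in 20.

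Gabra2 in L5 IT neurons was higher in rank 1 in 5 of 5 pairs of the same replicate number (log2 fold change 0.21 ± 0.14, not called). In L6 CT neurons it was lower in rank 1 in 4 of 4 pairs (-0.36 ± 0.22, not called), at 75.1, 34.1, 55.1 and 88.1 CPM in rank 1 replicates 1, 3, 4 and 5 and 108, 43.3, 94.2 and 95.8 CPM in rank 4. In Lamp5 interneurons Gabra2 was also lower in 4 of 4 pairs. Rank 1 held 80.1, 57.3, 0, 91.9 and 67.0 CPM in replicates 1 to 5, and rank 4 held 157, 100.4, 108 and 104 CPM in replicates 1, 2, 4 and 5. These values did not overlap, but they rest on 8, 4, 0, 10 and 9 UMIs in rank 1 and 20, 3, 17 and 25 UMIs in rank 4, from 11 to 93 cells a library, and 1 UMI more or less could make them overlap. Rank was not tested in Lamp5 cells, because too few libraries held 20 of them. The background of called genes was 0% in the cell types tested, and the difference in direction between cell types was not tested.

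Gabrb2 in L6 CT neurons was higher in rank 1 in 4 of 4 pairs (log2 fold change 0.37 ± 0.18, not called), at 21.0, 17.1, 94.9 and 92.8 CPM in rank 1 replicates 1, 3, 4 and 5 and 10.5, 12.98, 74.6 and 80.6 CPM in rank 4. In inhibitory neurons it was lower in 5 of 5 pairs (-0.20 ± 0.22, not called). Replicates 1 to 5 of rank 1 held 13.7, 7.03, 10.7, 88.2 and 95.5 CPM, and those of rank 4 held 13.9, 8.30, 14.0, 115 and 98.9 CPM. The pairs of replicates 1 to 3 rest on 11 against 11, 2 against 1 and 3 against 4 UMIs, so that their direction is within counting error. The difference between these cell types was not tested.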

How the results depend on the processing

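Every called difference between cell types kept its direction under the alternatives in which it could be tested, except that Gabrb1 in Lamp5 interneurons was 0.01 ± 0.22 within replicates 1 to 3. Without the library block 16 of 42 subclass tests were called instead of 26, 17 of 28 interneuron tests instead of 23, 3 instead of 4 of inhibitory against excitatory neurons and 6 instead of 7 in oligodendrocyte precursors, where Gabrb2 was lost in the last 2. Under the stricter cell filter 13 of 20 interneuron tests were called instead of 23 of 28, where fewer genes and cells could be tested. Leaving out each library gave 24 to 27 subclass calls, 17 to 23 interneuron calls (17 and 19 of 24 tests without rank 4 replicate 5 and rank 1 replicate 5, where 20 of the 23 calls could be tested) and 4 to 5 calls of inhibitory against excitatory neurons. The cause of the lost calls was not tested otherwise. For inhibitory against excitatory neurons 6 of 7 tests were called without the filter on low counts and 5 under the stricter cell filter, instead of 4. The added alternatives gave 27 of 42 calls without the immediate early gene cluster, 23 of 35 without L5 IT neurons and 22 of 28 with 20 cells per library.

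For rank, the paired fit with the replicate block called 1 of 29 class tests against 0 in the unpaired fit, and it changed no other call. It also moved Gabra2 in inhibitory neurons across 0, to 0.0431. Values that were not called and crossed 0 when 1 library was left out ran from -0.129 to 0.029 for Gabra3, -0.139 to 0.0345 for Gabrd and -0.0189 to 0.199 for Gabrb1 in excitatory neurons, and from -0.0354 to 0.246 for Gabra3, -0.138 to 0.322 for Gabra2 and -0.216 to 0.0395 for Gabra4 in inhibitory neurons. Depth limits genes with few UMIs in a type, such as Gabrd with 8 UMIs over the Vip libraries.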
